A study of Homo sapiens with 4 samples.

Results

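NAT8L encodes the acetyltransferase that joins aspartate to the acetyl group of acetyl-CoA to make N-acetylaspartate, an abundant metabolite of neurons. It was examined with 9 genes that supply its substrates. They encode the aspartate transaminases GOT1 and GOT2, the malate dehydrogenases MDH1 and MDH2, the mitochondrial carriers SLC25A11, SLC25A12 and SLC25A13, and the enzymes ACLY and ACSS2, which make acetyl-CoA in the cytosol. The 10 genes were chosen by name from 58243 gene rows in each table. NAT8L was taken because the study's title names it, and the others because of their place in metabolism. Earlier results of these data were known at that point, so the test of NAT8L is no independent support for its change. All 10 were found under their symbols.

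The cells were SH-SY5Y, an established human neuroblastoma line of adrenergic character that is widely used as a model of neurons. RNA was profiled by sequencing in 4 libraries. The control group held 2 libraries, a and b, of cells given no agent. The SNP group held 2 libraries, a and b, of cells exposed for 8 h to sodium nitroprusside (SNP), which is a nitric oxide donor. The labels call the RNA of the SNP group oxidized, and do not name the sequenced dose or any step that selected oxidized molecules. The treatment text of both groups speaks of cells differentiated with retinoic acid, while the culture text has no such step. Nothing in the labels says that a and b came from separate cultures, so p-values measure the spread between these libraries only, which may be technical. No batch is named, and a batch that followed the groups cannot be told apart from them.

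N-acetylaspartate synthesis draws on a pair of metabolic routes. The malate-aspartate shuttle carries the reducing power of cytosolic NADH into mitochondria: GOT and MDH isoenzymes on each side of the inner membrane interconvert malate, oxaloacetate and aspartate, and carriers exchange malate for 2-oxoglutarate and aspartate for glutamate. Acetyl-CoA for cytosolic reactions comes from citrate exported by mitochondria and split by ACLY, or from acetate activated by ACSS2. Oligodendrocytes break N-acetylaspartate down with aspartoacylase, encoded by ASPA, and neurons can couple it to glutamate to form the dipeptide NAAG.

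The gene counts of a library summed to between 5613144 (control b) and 8056550 (SNP a). A floor of 3 counts corresponded to between 0.372 and 0.534 CPM (counts per 1000000 counts), and covers counting error only. The 10 genes had between 64 and 1563 counts in a library, all above the filter on low counts. The adrenergic markers fixed for the line were well counted, with a summed level between 2078 and 2726 CPM. TH was the exception with 0 counts in all 4 libraries. The neuron markers summed to between 1517 and 1954 CPM, with both SNP libraries below both controls, as for the adrenergic sum. Members of the adrenergic list went both ways: 5 of 9 tested were called lower, beside 12.6% of all genes tested. HAND2 and CHGA were called higher, beside 13.6% of all genes tested. DBH fell from 673.3 ± 68.2 to 259.1 ± 54.9 CPM (SD, n = 2 each). The part of these shifts in the results was not tested. The oligodendrocyte markers summed to between 48.2 and 56.6 CPM, nearly all from CNP (312 to 378 counts), while MBP and MAG had 0 counts in every library. The astrocyte markers summed to between 7.63 and 12.2 CPM, mostly from GJA1 (36 to 82 counts), with AQP4 at 0. Of the retinoic acid response genes, STRA6 had 1271 to 1947 counts, RARB 17 to 28, DHRS3 13 to 25, CYP26B1 0 to 5, and CYP26A1 0 in every library.

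Across the transcriptome, 3861 of 14759 genes tested passed an adjusted p-value of 0.05 between SNP and control (26.2%). Of all genes tested, 13.6% were higher in SNP libraries and 12.6% were lower. The test was the quasi-likelihood test of edgeR, adjusted by the Benjamini-Hochberg method over all genes, and every adjusted p that follows is of this kind. Of the 10 genes, 4 passed (40.0%, a small number to set against the background): NAT8L was higher, and GOT1, GOT2 and MDH2 were lower. MDH1, SLC25A11, SLC25A12, SLC25A13, ACLY and ACSS2 did not pass. The median log2 fold change of the 10 was -0.19, against -0.0042 over all genes tested. In CPM, the values of the libraries did not overlap between groups for 7 of the 10. That is close to the background of 64.0% of all genes tested. The members concerned depend on the scaling. In the authors' TPM values, which are also scaled for transcript length, ACLY and SLC25A11 overlapped between groups and MDH1 did not.

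**Figure D1:**
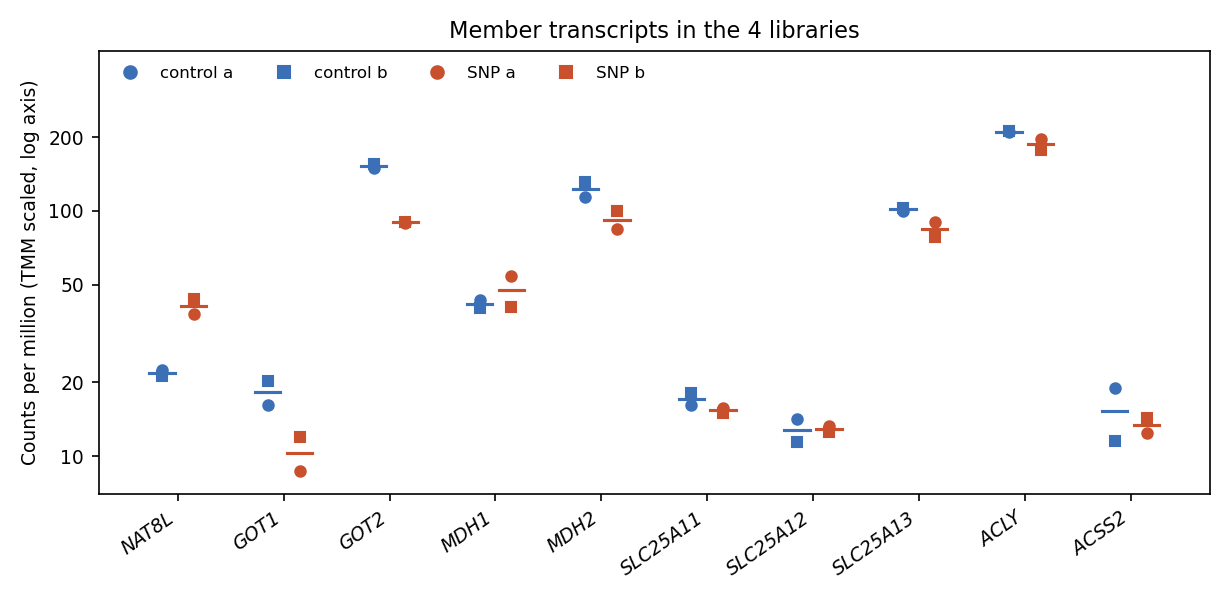
Level of each of the 10 transcripts in the 4 libraries, in CPM on a log axis; circles are libraries a, squares libraries b, blue control, red SNP, and each bar is the mean of 2 libraries. NAT8L was higher in both SNP libraries (37.9 and 43.8) than in both controls (22.5 and 21.3), GOT2 was lower (89.4 and 90.2 against 150 and 156), and MDH1, SLC25A12 and ACSS2 overlapped between groups.

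NAT8L transcripts were 1.86 times as abundant in SNP as in control libraries. The gene (ENSG00000185818) lies at chr4:2059512-2069089 on the plus strand of GRCh38, and its 3 exons in GENCODE 29 share no base with an exon of another gene. It was counted 146 and 120 times in control a and b, and 301 and 338 times in SNP a and b. In CPM these were 22.5 and 21.3 in control and 37.9 and 43.8 in SNP libraries. Both SNP values lay above both control values, and the gap exceeded the distance between replicates. The mean level rose from 21.9 ± 0.856 to 40.9 ± 4.20 CPM (SD, n = 2 each), a log2 fold change of 0.90 (SE 0.16, 95% interval 0.57 to 1.22, edgeR adjusted p = 2.5e-04). Counts here are relative to the library total, so a rise of the transcript cannot be told apart from a fall in the rest of the RNA. Nor can more cells with the transcript be told apart from more transcript per cell.

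The study's title concerns oxidation of NAT8L mRNA, and guanine is the base most readily oxidized, so the base content of the transcripts is given beside their levels. Over its annotated transcripts NAT8L held 35.1% guanine and 28.8% cytosine. Its guanine minus cytosine, 6.30 percentage points, lay at percentile 97.6 of the genes tested. In the transcript model used, the excess sat in the 3′ untranslated region, where 4961 bases held 35.03% guanine and 27.9% cytosine. That model has no 5′ untranslated bases, so such a region is not covered by this split. The 909 coding bases were nearly balanced, at 36.0% guanine and 35.2% cytosine. The coding stretch of 60 bases with the largest surplus of guanine over cytosine is shown for the 4 genes that passed the test, with guanines in capitals, read 5′ to 3′ along the transcript.
NAT8L: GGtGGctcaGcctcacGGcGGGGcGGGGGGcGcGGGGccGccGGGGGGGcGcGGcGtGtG
GOT1: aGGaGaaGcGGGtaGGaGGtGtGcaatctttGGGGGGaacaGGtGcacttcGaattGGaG
GOT2: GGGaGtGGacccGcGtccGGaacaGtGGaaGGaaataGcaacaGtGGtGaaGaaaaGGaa
MDH2: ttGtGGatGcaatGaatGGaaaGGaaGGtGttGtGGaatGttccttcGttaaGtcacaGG

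The NAT8L stretch lies in exon 1, at chr4:2059688-2059747 (plus strand, GRCh38), and holds 36 guanines and 17 cytosines. That of GOT1 holds 26 guanines and 7 cytosines and joins exons 2 and 3. That of GOT2 holds 23 guanines and 9 cytosines and joins exons 6 and 7. The MDH2 stretch lies in exon 8, at chr7:76064853-76064912 (plus strand), with 20 guanines and 6 cytosines. Each stretch was picked for its surplus of guanine, and the genes that did not pass were not searched. A link between such stretches and the direction of change was therefore not tested.

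Across all genes tested, log2 fold changes moved with guanine minus cytosine, and the cause was not tested. When the genes were ordered by guanine minus cytosine and cut into deciles of about 1473 genes, the median log2 fold change went from -0.43 in the lowest to 0.39 in the highest decile. NAT8L falls in the highest decile, of whose genes 41.5% were called higher and 1.70% lower. GOT2 and MDH2 fall in the second lowest, with a median of -0.27, 26.2% called lower and 3.74% called higher. GOT1, with equal guanine and cytosine, falls in the fourth, with a median of -0.091. With offsets on gene length, GC content and guanine minus cytosine, the log2 fold change of NAT8L was 0.54 (edgeR adjusted p = 0.0118). With the same offsets fitted in 2 rounds, an alternative chosen after the data were seen, it was 0.38 and the call was lost (edgeR adjusted p = 0.0628).

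**Figure D2:**
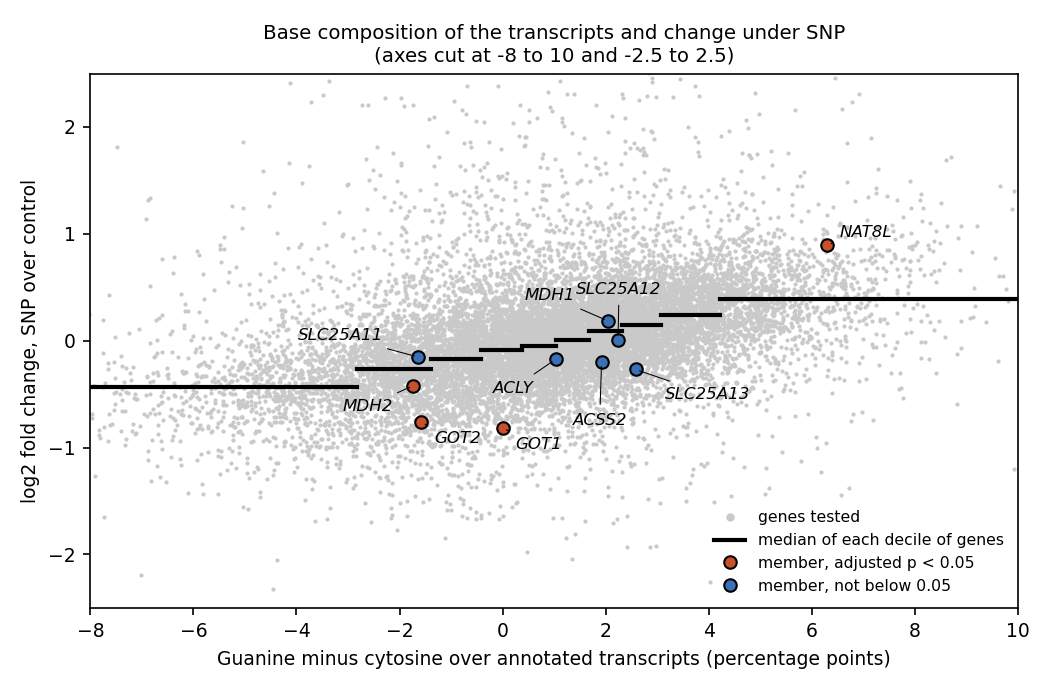
Guanine minus cytosine over the annotated transcripts of each gene (percentage points) against the log2 fold change of SNP over control; grey points are genes tested, black bars the median of each decile of genes, and large points the 10 named genes, red where the adjusted p was below 0.05. NAT8L lies at 6.30 points in the highest decile, whose median is 0.39, and GOT2 and MDH2 lie in the second lowest, whose median is -0.27.

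The aspartate transaminases both fell. GOT2, the mitochondrial isoenzyme (ENSG00000125166, chr16:58707131-58734357, minus strand), converts oxaloacetate and glutamate to aspartate and 2-oxoglutarate in the matrix. It was counted 971 and 877 times in control a and b and 710 and 696 times in SNP a and b, although the SNP libraries were the larger ones. In CPM the controls were at 150 and 156, and the SNP libraries at 89.4 and 90.2. The groups were far apart and the replicates of each close together. The mean fell from 152.7 ± 4.21 to 89.8 ± 0.612 CPM (SD, n = 2 each), a log2 fold change of -0.77 (SE 0.10, 95% interval -0.98 to -0.55, edgeR adjusted p = 2.2e-05). GOT2 passed in all 16 alternative fits at the threshold of 0.05, with a log2 fold change of -0.53 under the guanine minus cytosine offsets. The 4 GOT2 pseudogenes in the tables had 0 counts.

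GOT1, the cytosolic isoenzyme (ENSG00000120053, chr10:99396870-99431569, minus strand), runs the reverse reaction in the shuttle. It was counted 105 and 114 times in control and 69 and 92 times in SNP libraries, or 16.2 and 20.2 against 8.69 and 11.9 CPM. Both SNP values lay below both controls, with a spread inside each group nearly as wide as the gap between groups. The mean went from 18.2 ± 2.86 to 10.3 ± 2.29 CPM (SD, n = 2 each), a log2 fold change of -0.82 (SE 0.22, 95% interval -1.28 to -0.36, edgeR adjusted p = 0.0092). The call was lost without control b (-0.65, edgeR adjusted p = 0.105) and without SNP a (-0.60, edgeR adjusted p = 0.0725). In GENCODE 29, GOT1 shares 651 exon bases with the antisense gene AL391684.1, which was counted 24 and 29 times in control and 46 and 32 times in SNP libraries. The GOT1 length implied by count and RPKM, 2424 bases, is shorter than the 3369 of GENCODE 29. Whether the authors' model of GOT1 held the shared stretch is therefore not known. Whether the authors' counting used strand is not given in the sources used here, so reads of this stretch cannot be assigned to either gene with certainty.

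The ratio of GOT2 to GOT1 counts within a library, in which library scaling cancels, was 9.25 and 7.69 in control and 10.3 and 7.57 in SNP libraries. The groups overlapped: the log2 difference was 0.065 (SE 0.26). An exact two-sided permutation test of the 4 libraries gave p = 1, where the smallest value this design allows is 0.333.

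The malate dehydrogenases interconvert malate and oxaloacetate. MDH2, the mitochondrial enzyme of the citric acid cycle (ENSG00000146701, chr7:76048051-76067508, plus strand), was counted 739 and 742 times in control and 667 and 767 times in SNP libraries. These were 114 and 132 CPM in control and 84.0 and 99.4 CPM in SNP libraries. Every SNP value lay below every control value. The mean fell from 122.9 ± 12.6 to 91.7 ± 10.9 CPM (SD, n = 2 each), a log2 fold change of -0.42 (SE 0.12, 95% interval -0.66 to -0.18, edgeR adjusted p = 0.0107). The call was lost with the guanine minus cytosine offsets (-0.14, edgeR adjusted p = 0.283; -0.15 and 0.260 in 2 rounds) and with the read totals implied by RPKM (-0.35, 0.0906). It was also lost without control b (-0.31, edgeR adjusted p = 0.190) and without SNP a (-0.30, 0.0765).

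MDH1, the cytosolic enzyme (ENSG00000014641, chr2:63588609-63607197, plus strand), was counted 281 and 226 times in control and 430 and 314 times in SNP libraries. In CPM, SNP a stood at 54.1, while SNP b, at 40.7, lay between control b at 40.1 and control a at 43.3. In TPM both SNP libraries lay above both controls. The log2 fold change was 0.18 (SE 0.15, 95% interval -0.12 to 0.49, edgeR adjusted p = 0.389), and without SNP a it was -0.037. MDH1 shares 191 exon bases with WDPCP on the other strand.

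The MDH2 to MDH1 count ratio was 2.63 and 3.28 in control and 1.55 and 2.44 in SNP libraries. It was lower in both SNP libraries, with a log2 difference of -0.59 (SE 0.36; exact permutation p = 0.333, 0.667 adjusted over the 4 ratios). That p is the smallest that 4 libraries allow, so whether MDH2 and MDH1 changed differently could not be settled by this test. The difference was -0.27 without SNP a and -0.92 without SNP b.

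The carriers of the shuttle did not pass the test. SLC25A13, the aspartate-glutamate carrier known as citrin (ENSG00000004864, chr7:96120220-96322147, minus strand), was counted 649 and 581 times in control libraries, and 716 and 605 times after SNP. In CPM these were 100 and 103 against 90.1 and 78.4, so both SNP libraries were below both controls. The log2 fold change was -0.27 (SE 0.11, 95% interval -0.50 to -0.034, edgeR adjusted p = 0.0841). This was the member nearest to the threshold from outside. It passed with offsets on length and GC content (-0.29, edgeR adjusted p = 0.0243), when guanine minus cytosine was added (-0.39, 0.0060) and without SNP a (-0.37, 0.0269).

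SLC25A12, the aspartate-glutamate carrier known as aralar (ENSG00000115840, chr2:171784370-171999859, minus strand), was counted 92 and 64 times in control libraries, and 105 and 97 times after SNP. Its 14.2 and 11.4 CPM in control enclosed the 13.2 and 12.6 CPM of the SNP libraries. The log2 fold change was 0.0088 (SE 0.22, 95% interval -0.44 to 0.46, edgeR adjusted p = 0.981), a range that includes changes of the size seen for SLC25A13. The SLC25A13 to SLC25A12 count ratio was 7.05 and 9.08 in control and 6.82 and 6.24 in SNP libraries. That is a log2 difference of -0.30 (SE 0.19, exact permutation p = 0.333, again the smallest possible, 0.667 adjusted over 4 ratios). Without control b it was -0.11, and without control a -0.48.

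SLC25A11 exchanges malate for 2-oxoglutarate across the inner membrane (ENSG00000108528, chr17:4937130-4940251, minus strand). It was counted 105 and 102 times in control libraries, and 125 and 116 times after SNP, or 16.2 and 18.1 against 15.7 and 15.04 CPM. In CPM both SNP values lay just below both controls, while in TPM the groups overlapped. The log2 fold change was -0.15 (SE 0.19, 95% interval -0.55 to 0.25, edgeR adjusted p = 0.600). It shares 244 exon bases with RNF167, and SLC25A12 shares 181 with METAP1D, each on the opposite strand.

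ACLY and ACSS2 are the enzymes that make acetyl-CoA outside mitochondria. ACLY, ATP citrate lyase (ENSG00000131473, chr17:41866908-41930542, minus strand), was the most counted of the 10, with 1356 and 1196 counts in the controls, and 1563 and 1364 after SNP. In CPM these were 209 and 212 in control and 197 and 177 in SNP libraries. Both SNP libraries were lower in CPM, while in TPM the groups overlapped. The log2 fold change of -0.17 did not pass (SE 0.10, 95% interval -0.38 to 0.033, edgeR adjusted p = 0.211). The lower end of the interval is a fall of 0.38 on the log2 scale, and it covers the spread between these libraries only. ACSS2, which activates acetate (ENSG00000131069, chr20:34872146-34927962, plus strand), was counted 123 and 65 times in the controls, and 99 and 110 times after SNP. The control values of 19.0 and 11.5 CPM enclosed the SNP values of 12.5 and 14.3 CPM. Its log2 fold change was -0.20 (SE 0.23, 95% interval -0.68 to 0.28, edgeR adjusted p = 0.558). The ACLY to ACSS2 count ratio ranged from 11.02 to 18.4 in control and from 12.4 to 15.8 in SNP libraries, with a log2 difference of -0.026 (SE 0.41, exact permutation p = 1).

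**Figure D3:**
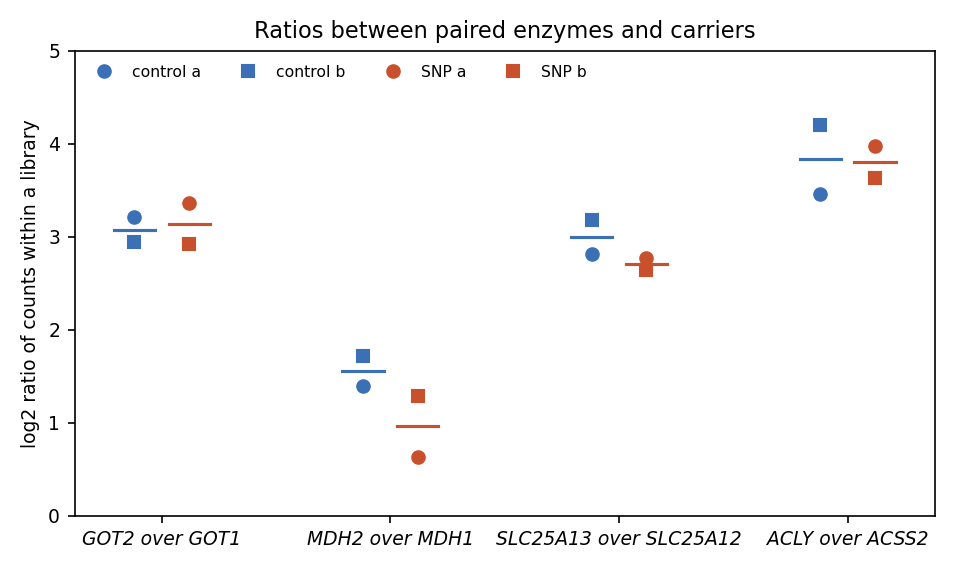
Log2 ratio of counts within each library for GOT2 over GOT1, MDH2 over MDH1, SLC25A13 over SLC25A12 and ACLY over ACSS2; circles are libraries a, squares libraries b, blue control, red SNP, and bars are means of 2 libraries. The MDH2 over MDH1 and SLC25A13 over SLC25A12 ratios were lower in both SNP libraries, by 0.59 and 0.30 on the log2 scale, and the other 2 ratios overlapped between groups.

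**Figure D4:**
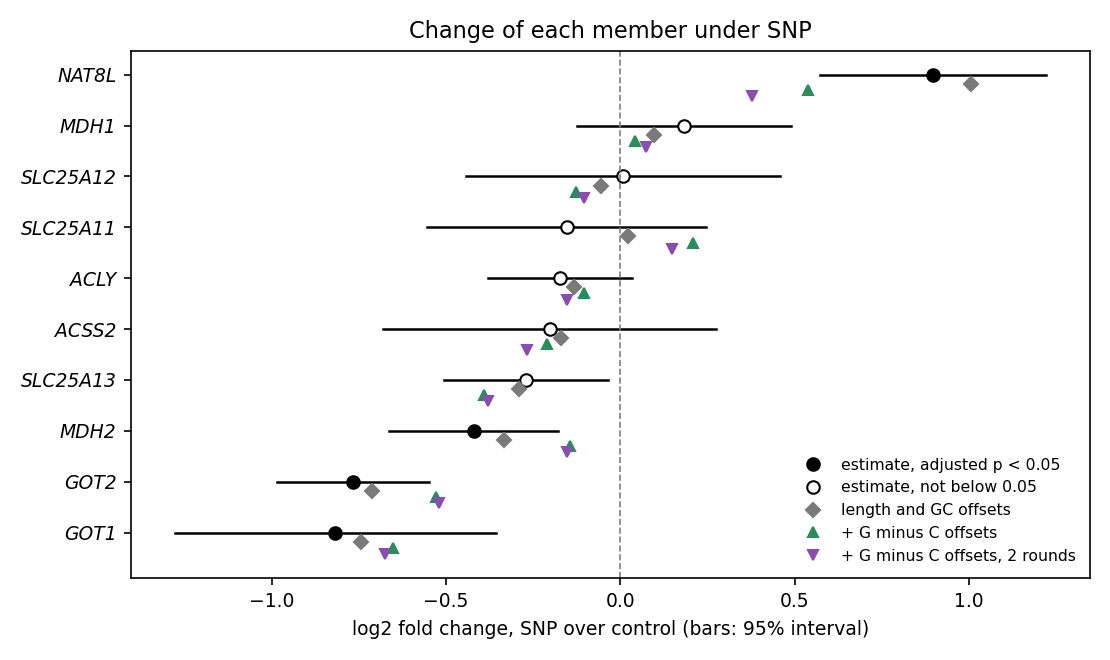
Log2 fold change of SNP over control for the 10 genes with 95% intervals; filled circles passed an adjusted p of 0.05, open circles did not, and the coloured marks give the estimate with offsets on length and GC content and with guanine minus cytosine added in 1 or 2 rounds. The estimate of NAT8L moved from 0.90 to 0.54 and 0.38 with guanine minus cytosine, that of GOT2 from -0.77 to -0.53 and -0.52, and that of MDH2 from -0.42 to -0.14 and -0.15.

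To compare levels between genes, the authors' TPM values were used, which are scaled for transcript length. In control libraries GOT2 (185 to 196 TPM) and ACLY (187 to 193) were the most abundant and overlapped. MDH2 (146 to 172) and SLC25A13 (126 to 132) followed, each apart from its neighbours in the order. MDH1, GOT1 and SLC25A11 overlapped in sequence between 28.3 and 40.5 TPM. NAT8L stood below these at 17.2 to 17.9 TPM, above ACSS2 and SLC25A12, which overlapped between 10.2 and 16.4. In SNP libraries ACLY led alone (177 to 188 TPM), and MDH2, GOT2 and SLC25A13 overlapped in sequence between 111 and 143. NAT8L, at 32.2 to 39.0 TPM, stood above SLC25A11 (29.4 to 29.5) and GOT1 (17.9 to 25.7), both of which had been above it in control libraries. For GOT1, the length implied by count and RPKM was 2424 bases, against 3369 exon bases in GENCODE 29. Its counts, fold change and TPM therefore rest on a different gene model. The other 9 had equal lengths.

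Relative to NAT8L, the supplying transcripts were less abundant in SNP libraries. GOT2 was 10.9 ± 0.725 times NAT8L in TPM in control and 3.44 ± 0.330 times in SNP libraries (SD, n = 2 each). GOT1 went from 2.02 ± 0.395 to 0.607 ± 0.0736 times, and ACLY from 10.8 ± 0.540 to 5.19 ± 0.921 times NAT8L. These ratios share the NAT8L values, so they are no separate evidence for each gene. Each also falls with the rise of NAT8L itself, from a mean of 17.6 to 35.6 TPM. Mean ACLY was 190 TPM in control and 183 in SNP libraries. In TPM itself, the means of MDH1 and SLC25A12 were higher in SNP libraries, and those of the other supplying genes were lower. The summed TPM of the 10 genes was 816 ± 36.0 in control and 710 ± 12.7 in SNP libraries. NAT8L made up 2.15 ± 0.150% of that sum in control and 5.01 ± 0.587% in SNP libraries, and GOT2 23.4 ± 0.0717% and 17.2 ± 0.368%.

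The promoter sequence of the 3 members with the largest fold changes is shown to let their base content be compared. Each is the 250 bases before a RefSeq transcript start (GRCh38.p14), on the strand of the gene, with the GC box GGGCGG or its reverse complement in capitals. They lie at chr4:2059077-2059326 for NAT8L, chr10:99430625-99430874 for GOT1 and chr16:58734317-58734566 for GOT2. The gene spans given above come from GENCODE, which places the starts of these genes differently from RefSeq. By those spans the GOT1 window lies wholly inside the gene and the GOT2 window partly inside it. The NAT8L window ends before its span begins.
NAT8L: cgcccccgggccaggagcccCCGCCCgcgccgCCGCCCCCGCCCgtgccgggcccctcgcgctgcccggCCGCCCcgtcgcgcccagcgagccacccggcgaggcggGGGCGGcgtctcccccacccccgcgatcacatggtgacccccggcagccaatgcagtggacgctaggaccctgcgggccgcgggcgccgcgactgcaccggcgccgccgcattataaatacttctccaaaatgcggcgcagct
GOT1: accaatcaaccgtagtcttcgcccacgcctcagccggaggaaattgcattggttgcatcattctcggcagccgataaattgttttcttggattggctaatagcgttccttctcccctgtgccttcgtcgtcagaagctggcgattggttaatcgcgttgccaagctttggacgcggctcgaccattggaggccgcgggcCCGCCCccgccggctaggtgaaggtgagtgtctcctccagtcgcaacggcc
GOT2: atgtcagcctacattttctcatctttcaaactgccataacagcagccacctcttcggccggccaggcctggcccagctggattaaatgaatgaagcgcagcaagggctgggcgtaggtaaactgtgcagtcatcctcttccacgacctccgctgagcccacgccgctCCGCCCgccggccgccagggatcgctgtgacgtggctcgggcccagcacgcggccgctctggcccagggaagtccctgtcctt

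The NAT8L window held 5 GC boxes and 39 CpG dinucleotides at a GC content of 78.4%, beside medians of 11 CpG and 58.0% GC over 35116 human promoter windows of this length. The GOT1 and GOT2 windows held 1 GC box each, with 22 and 18 CpG. All 10 genes had a RefSeq start, with 13 windows in all. A gene was counted for a motif when any of its windows matched, while the background shares are per window, so the measures are not alike. The GC box, searched on both strands, was present for 7 of the 10 genes and in 42.6% of all windows. CCAAT was present for 6 genes and in 32.0% of all windows, and TATAAA for NAT8L alone and in 10.7%. CACGTG was present for SLC25A13 alone and in 6.34%. GCATGCGC (2.63% of all windows) and TGACGTCA (1.65%) matched none of the 10. These matches describe letters in the windows and no binding was measured. The windows of every gene but NAT8L lay within the gene span given above or overlapped it.

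The wider pathways were described with 8 lists of 77 genes, of which 62 could be tested. In both directions together 25.8% of those tested passed, which is near the background of 26.2%. By direction, 4 of the 62 were higher in SNP libraries and 12 were lower. Over all genes tested the split was more even, with 13.6% higher and 12.6% lower. The median log2 fold change of the 62 was -0.13.

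Of 4 tested genes of N-acetylaspartate breakdown, transport and NAAG synthesis, 1 rose and 2 fell (median -0.54). RIMKLA and RIMKLB encode the ligases that form NAAG from N-acetylaspartate and glutamate, and they moved in opposite directions. RIMKLA fell from 77.1 ± 15.02 to 52.2 ± 6.33 CPM (SD, n = 2 each; log2 fold change -0.56, edgeR adjusted p = 0.0050). RIMKLB rose from 107.5 ± 3.90 to 145.7 ± 13.8 CPM (0.44, edgeR adjusted p = 0.0049). RIMKLB did not pass with the guanine minus cytosine offsets (0.043, edgeR adjusted p = 0.741; 0.083 and 0.490 in 2 rounds), and without control b neither ligase passed (-0.35 with 0.187 for RIMKLA and 0.40 with 0.0690 for RIMKLB). NAALAD2, which encodes a peptidase that cleaves NAAG, fell (-0.52, edgeR adjusted p = 0.0270), and did not pass without control a (-0.40, 0.236) or without SNP b (-0.32, 0.168). It was also lost with the Wald test of DESeq2 (adjusted p = 0.103) and the read totals implied by RPKM (edgeR adjusted p = 0.0566). The breakdown enzyme ASPA was at or near the floor, counted 6 and 2 times in control and 3 and 9 times in SNP libraries. SLC13A3, an importer of N-acetylaspartate, had 5, 4, 4 and 13 counts in control a, control b, SNP a and SNP b, NAALADL1 had 1, 2, 2 and 4, and FOLH1 had 0 in all.

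Among the genes that use or carry aspartate, 1 of 11 tested passed (median -0.0055). CAD, the enzyme of the opening steps of pyrimidine synthesis, was lower (-0.28, edgeR adjusted p = 0.0443), a call lost in 10 of 16 alternative fits. ASS1, the urea cycle enzyme that consumes aspartate, had 4, 7, 11 and 6 counts in the same library order and SLC1A3 had 0. Among the genes of glutamate and oxaloacetate supply, 1 of 9 tested passed (median 0.0092). PSAT1, a transaminase of serine synthesis, fell from 45.9 ± 2.93 to 31.0 ± 6.22 CPM (SD, n = 2 each; -0.56, edgeR adjusted p = 0.0097). It did not pass without control b (-0.50, 0.0771) or without SNP b (-0.37, 0.0733). GLUD2 had 0 counts.

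The pyruvate dehydrogenase complex makes acetyl-CoA from pyruvate in mitochondria, and kinases switch it off while phosphatases switch it on. Of 12 tested genes of the complex and its regulators, 3 rose and 2 fell (median 0.030). PDK2, a kinase, fell from 21.1 ± 1.52 to 9.26 ± 0.103 CPM (SD, n = 2 each; log2 fold change -1.19, edgeR adjusted p = 2.1e-04), counted 130 and 125 times in the controls, and 73 and 72 times after SNP. PDP1, a phosphatase, rose from 38.8 ± 0.691 to 58.4 ± 3.21 CPM (0.59, edgeR adjusted p = 0.0020). Both passed in all 16 alternative fits. PDHA1, the catalytic subunit, rose (0.61, edgeR adjusted p = 0.0101), and did not pass without control b (0.41, 0.183) or without SNP a (0.46, 0.0758). PDP2, the other phosphatase, was lower (-0.35, edgeR adjusted p = 0.0486), a call lost in 11 of 16 alternative fits. DLD, the fifth gene that passed, is outside the naming rule and was chosen after its values were seen (0.32, edgeR adjusted p = 0.0387). PDK4 had 1 count in each library.

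In the list of the citrate route and other acetyl-CoA sources, 3 of 13 tested genes fell and none rose (median -0.33). CS, citrate synthase, which makes the citrate that ACLY splits, fell from 242.8 ± 16.2 to 174.5 ± 12.7 CPM (SD, n = 2 each; -0.48, edgeR adjusted p = 0.0014). CRAT, which moves acetyl groups between CoA and carnitine, fell from 21.3 ± 0.219 to 10.04 ± 1.203 CPM (-1.08, edgeR adjusted p = 4.5e-04). Both passed in all 16 alternative fits. ME3, a mitochondrial malic enzyme, fell (-0.79, edgeR adjusted p = 0.0202), and did not pass without control b (-0.65, 0.166) or without SNP b (-0.68, 0.0748). It was also lost with the guanine minus cytosine offsets (-0.49, edgeR adjusted p = 0.155; -0.53 and 0.122 in 2 rounds), and in 6 of 16 alternative fits in all. The ACSS2 paralogs ACSS1 and ACSS3 were not detectable at this depth. ACSS1 had 1 count in SNP a and 0 elsewhere, and ACSS3 had 0 in all libraries.

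Of 7 genes that use acetyl-CoA in the cytosol, 2 fell (median -0.15). FASN, fatty acid synthase, had the highest level of these, and fell from 371.6 ± 6.72 to 265.8 ± 43.4 CPM (SD, n = 2 each; -0.48, edgeR adjusted p = 0.0017). It did not pass with the guanine minus cytosine offsets (-0.14, edgeR adjusted p = 0.145), and passed with them in 2 rounds (-0.23, 0.0242). ACACB, an acetyl-CoA carboxylase, was lower (-0.41, edgeR adjusted p = 0.0349), a call lost in 8 of 16 alternative fits. None of 3 tested genes of the glycerol phosphate shuttle and lactate dehydrogenase passed, with GPD2 at 0.13, LDHA at -0.24 and LDHB at 0.15 on the log2 scale. GPD1 had 5, 0, 4 and 2 counts. Of the paralogs of the 10 genes, SLC25A10, the dicarboxylate carrier, was lower (-0.55, edgeR adjusted p = 0.0111), a call lost in 6 of 16 alternative fits. NAT8, NAT8B and GOT1L1 had 0 counts in all libraries, and SLC25A18 had 1 in each control library.

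**Figure D5:**
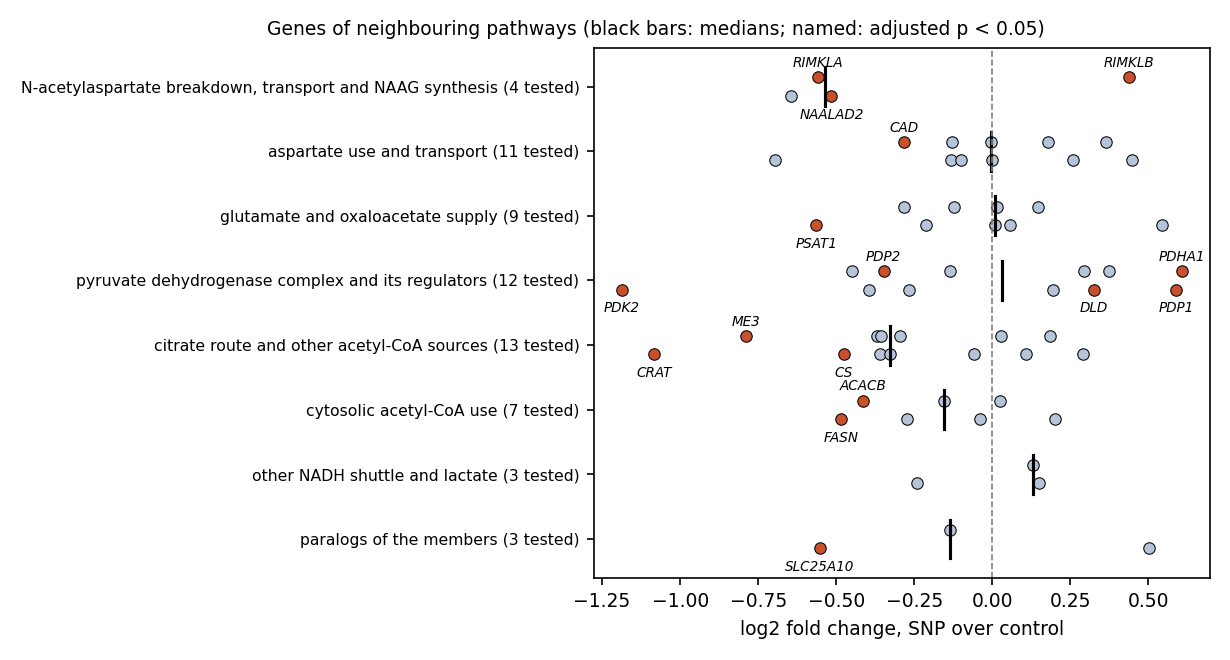
Log2 fold change of SNP over control for the tested genes of 8 pathway lists; each point is a gene, red and named where the adjusted p was below 0.05, and black bars are list medians. The medians run from -0.54 for N-acetylaspartate breakdown and NAAG synthesis to 0.13 for the NADH shuttle and lactate list, and 4 genes stand to the right and 12 to the left among those that passed.

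The transcripts whose pattern over the 4 libraries was nearest to that of NAT8L, among 8426 genes whose mean level reached 20 CPM, were KIF7, DUSP4, AATF, ZNF337 and PHRF1. Likeness was the Euclidean distance between centred log2 CPM values, which was 0.038 for KIF7 and 0.088 for PHRF1, against a median of 0.92 over all genes compared. KIF7 was counted 134 and 112 times in control and 286 and 320 times in SNP libraries, close to the 146, 120, 301 and 338 of NAT8L. The log2 fold changes of the 5 lay between 0.85 and 0.93, which follows from choosing them by these same values. Their guanine minus cytosine was lower than that of NAT8L, which few genes exceed (percentile 97.6). It lay between 1.06 percentage points for DUSP4 (percentile 50.4 of the genes tested) and 3.95 for KIF7 (percentile 88.0).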

How the data were processed

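The 10 genes, the gene lists and the tests were chosen with earlier results of these data known. Each of the 4 libraries had a table of genes. The authors deposited whole-number counts per gene, with no normalization, as the expression value, per the file headers and the values. They also deposited TPM values, which sum to 1000000 per library, and RPKM values, scaled per kilobase to a read total larger than the summed counts, per the file headers. The build was GRCh38, per the submitters' processing notes; the aligner, the counter, the annotation and the use of strand are not given in the sources used here. Per the labels, sequencing used 75 bp at 40 M reads per library. The read totals implied by RPKM were larger, at 50.6 and 48.7 M in control a and b and 60.6 and 62.0 M in SNP a and b. Gene counts made up between 11.5% (control b) and 13.3% (SNP a) of these totals.

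Of 58243 gene identifiers, 57980 were found in GENCODE 29, which gave positions, exons and base content over annotated transcripts. Between 89.1% and 89.3% of genes with more than 50 counts had the exon length of GENCODE 29, as judged from the ratio of count to RPKM. Counts were fitted with edgeR 4.0.16 in R 4.3.3: filterByExpr (minimum count 10, minimum total 15), TMM scaling (factors 0.989 to 1.01), the quasi-likelihood test of SNP against control with all 4 libraries and no covariate, Benjamini-Hochberg adjustment over 14759 genes, and a threshold of 0.05. Standard errors were computed as the absolute log2 fold change over the square root of F. CPM values are TMM scaled. Ratios between genes were compared by an exact two-sided permutation test. The scripts were tested on simulated counts.

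All 10 genes were described. From each list up to 4 genes were named, those called with the largest absolute log2 fold change, with those too weakly counted to be tested. The 5 genes nearest to NAT8L were named by distance on log2 CPM (prior count 2). The alternatives were other filters, DESeq2 size factors, total counts without TMM, read totals implied by RPKM, DESeq2 1.42.0, limma-voom (limma 3.58.1), the replicate letter as a block, per-library lowess offsets (span 0.5, 3 iterations) on length, GC content and guanine minus cytosine, a threshold of 0.01, and leaving out each library. The offsets in 2 rounds were added after the data were seen. A listed marker gene is not reported here.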

Additional observations from a re-analysis of the deposited data

How the results depend on the processing

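Under the offsets on length, GC content and guanine minus cytosine in 2 rounds NAT8L stood at 0.38 and was no longer called; in the other 15 of 16 alternative fits at the threshold of 0.05 it passed. SLC25A11, not called, changed sign with offsets: 0.024 for length and GC, 0.023 with the replicate block, 0.21 with guanine minus cytosine added and 0.15 in 2 rounds. SLC25A12, not called, changed sign under the same 4 settings, at -0.056, -0.051, -0.13 and -0.10. The cause was not tested. The Wald test of DESeq2 called 2415 genes in all, and a threshold of 0.01, not counted among the 16 fits, called 2224 in all and 3 of the 10 genes, without MDH2. At 0.01, among the list genes named by the rule, the calls of NAALAD2, CAD, PDHA1, PDP2, ME3, ACACB and SLC25A10 were lost too. Scaling to the read totals implied by RPKM called 3303 genes, 63.1% of them higher against 51.9% in the reported fit, and moved the median of all log2 fold changes to 0.064.

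Leaving out each library in turn gave log2 fold changes from -0.037 to 0.37 for MDH1, from -0.14 to 0.18 for SLC25A12 and from -0.51 to 0.21 for ACSS2. The log2 ratio difference ranged from -0.16 to 0.29 for GOT2 over GOT1, from -0.92 to -0.27 for MDH2 over MDH1, from -0.48 to -0.11 for SLC25A13 over SLC25A12 and from -0.40 to 0.34 for ACLY over ACSS2. Of the 10 genes, 2 to 4 were called, with 2 without control b. Of all genes, 2471 (without control b) to 4096 were called, and 2501 without control a. Without control b the N-acetylaspartate list had 1 call in place of 3 and the pyruvate dehydrogenase list 2 in place of 5. Fits that leave 1 library in a group assume that it varies like the other group.

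With the replicate letter as a block, NAT8L stood at 0.89 (edgeR adjusted p = 3.3e-05), 4 of the 10 genes were called, and 4487 genes were called in all. Across genes, the a-minus-b difference in control correlated with that in SNP at 0.050, so the letters were not treated as pairs. Counts of 64 to 125 in a library limit the precision for GOT1, SLC25A11, SLC25A12 and ACSS2.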

Other observations

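POLN, a DNA polymerase gene on the minus strand whose 3′ end lies 2829 bases beyond the 3′ end of NAT8L in GENCODE 29, was also higher. It was chosen for its position and named after its values were seen. It was counted 14 and 4 times in control a and b and 51 and 66 times in SNP a and b, a log2 fold change of 2.33 (SE 0.43, edgeR adjusted p = 4.2e-04). The genes do not share exon bases, and strand use in the counting is not given in the sources used here. The other 2 genes tested within 100 kb were NELFA, at -0.21 (edgeR adjusted p = 0.319), and NSD2, at 0.12 (edgeR adjusted p = 0.353).

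ASNS, which makes asparagine from aspartate, differed between the control libraries. It stood at 83.1 CPM in control a and 192 in control b, and at 191 and 182 in SNP a and b. It was not called (log2 fold change 0.45, edgeR adjusted p = 0.114), and is named after its values were seen.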
